A study of Rattus norvegicus with 15 samples.

Results

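The genes described here are the serpins, a family of protease inhibitors, measured by RNA sequencing of rat lung. Rows of the expression table whose symbol begins with Serpin were taken, and those above 0 FPKM in at least 5 of the 15 libraries were kept. FPKM corrects fragment numbers for the length of a gene and for how many fragments of the library mapped, so levels can be compared between genes. Of 22250 genes in the table, 39 were serpins described here, and 22 of these met the rule. Tests were made for the 14 serpins that reached 1 FPKM in 5 libraries or more, within a fit over 13172 genes.

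The study compared 3 groups of 5 lung libraries, all from rats labelled WT. WDD rats had been exposed to lipopolysaccharide and smoke by the trachea and had been given Wendan Decoction, a Chinese herbal formula, into the stomach. COPD rats, a model of chronic obstructive pulmonary disease, had the same exposure without the decoction. Control rats were normal. Every COPD and WDD rat therefore carried both exposures together, and whole lung RNA was used, with no sorting of cells. The labels do not say that the libraries came from separate rats, so the p-values below describe only how these samples scatter, which may be technical.

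Most serpins trap a protease: the enzyme cuts an exposed loop of the serpin, the serpin refolds, and both are locked in an inactive complex. Clade A serpins are secreted, many of them by the liver, and include alpha-1 antitrypsin, whose inherited lack in people leads to emphysema because neutrophil elastase goes unchecked. Clade B serpins stay mostly inside cells, in leukocytes and epithelia, and neutralise proteases that leak from granules. Clades C to I hold the inhibitors of clotting, fibrinolysis and complement, and also members that inhibit nothing, such as the collagen chaperone Serpinh1.

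The 22 serpins fell into clade A (2 genes), clade B (10), clade C (1), clade D (1), clade E (2), clade F (2), clade G (1), clade H (1) and clade I (2). Clades E to I therefore held 8. The other 17 serpins in the table, 11 of clade A and 6 of clade B, were above 0 in fewer than 5 libraries, and 10 of them were at 0 in every library. In RefSeq's GRCr8 gene order, the clade B genes lie in a pair of clusters. The cluster on chromosome 17 runs from Serpinb6a through Serpinb9 and Serpinb6b to Serpinb1a, and that on chromosome 13 holds Serpinb2, Serpinb3, Serpinb7, Serpinb8, Serpinb10 and Serpinb11. Serpina1 and Serpina11 are next to each other on chromosome 6.

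Promoter windows from RefSeq (GRCr8, 250 bases before to 50 bases after the start of a gene) matched 19 of the 22 serpins. The 3 below are shown because Serpinb1a and Serpinb6b are direct neighbours on chromosome 17 that differed in opposite directions in COPD lungs, and Serpina1 had the lowest log2 fold change of FPKM + 1 among the serpins in those lungs. Capitals mark matches to an NF-kappaB motif, GGG and CC parted by any 5 bases, or to a STAT motif, TTCNNNGAA, searched on both strands. The windows are chr17:31799196-31799495 (plus strand), chr17:31683885-31684184 (minus strand) and chr6:128653076-128653375 (minus strand).
Serpinb1a: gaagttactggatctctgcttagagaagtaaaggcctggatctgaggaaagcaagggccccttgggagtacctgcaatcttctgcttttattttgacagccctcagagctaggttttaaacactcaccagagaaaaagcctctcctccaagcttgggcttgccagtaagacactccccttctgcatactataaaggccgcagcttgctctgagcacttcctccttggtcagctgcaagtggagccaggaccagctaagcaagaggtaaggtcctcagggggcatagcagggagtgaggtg
Serpinb6b: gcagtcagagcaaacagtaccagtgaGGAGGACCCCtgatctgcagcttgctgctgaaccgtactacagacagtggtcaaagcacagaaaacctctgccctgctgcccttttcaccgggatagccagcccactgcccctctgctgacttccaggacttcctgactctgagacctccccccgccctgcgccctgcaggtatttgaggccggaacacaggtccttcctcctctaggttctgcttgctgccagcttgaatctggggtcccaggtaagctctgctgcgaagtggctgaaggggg
Serpina1: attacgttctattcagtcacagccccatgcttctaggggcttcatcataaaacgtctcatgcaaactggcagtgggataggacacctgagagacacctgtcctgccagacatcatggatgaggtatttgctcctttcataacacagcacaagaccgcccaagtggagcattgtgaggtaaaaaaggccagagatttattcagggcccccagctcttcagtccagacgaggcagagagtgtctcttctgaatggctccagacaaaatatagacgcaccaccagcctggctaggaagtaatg
The Serpinb1a and Serpina1 windows held neither motif, and the Serpinb6b window held 1 NF-kappaB match on the opposite strand. Among all 33469 promoter windows of this length, 47.3% held the NF-kappaB motif and 8.9% the STAT motif. Of the 19 matched serpins, Serpinb6a, Serpinb6b, Serpine2, Serpinh1 and Serpini1 held the NF-kappaB motif, and Serpina11 and Serpinb6a the STAT motif. The GC content was 51.7% for Serpinb1a, 59.0% for Serpinb6b and 49.3% for Serpina1, beside a median of 51.7% over all windows. These are matches of letters and not binding sites.

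Several measures of the whole libraries moved with the groups and bear on every serpin value below. The 13 mitochondrially encoded genes took 21.7% ± 2.90 of the summed FPKM in WDD libraries, 44.9% ± 12.4 in COPD libraries and 8.11% ± 1.94 in control libraries (SD, n = 5 each; exact permutation test, two-sided p = 0.00794 for each pair, the smallest that 5 against 5 allow). The median log2 fold change over all tested genes was -0.81 for COPD against control, 0.54 for WDD against COPD and -0.23 for WDD against control. A second scaling is therefore given beside the deposited one: median-of-ratios, which brings these medians to -0.05, 0.03 and 0.01. A value on that scale is a change relative to the typical gene. Relative depth, read from the steps between low FPKM values, lay between 0.877 and 1.11 times that of control 2. Read totals were not used here. COPD 5 stood apart from the rest of its group: over the tested genes its log2 values correlated with those of the other COPD libraries at Pearson's r of 0.885 to 0.898, whereas every other pair within a group reached at least 0.9515. It is also the library with the highest Serpina11 and the lowest Serpinh1. Without COPD 5, limma called 3 serpins higher and 9 lower in COPD against control, 9 and 3 in WDD against COPD, where Serpinb10 was added (-0.49, adjusted p = 0.0327), and 1 and 3 in WDD against control, where Serpinb6b was added (0.34, adjusted p = 0.0338). In whole tissue, fewer cells of a type and less RNA per cell cannot be told apart.

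Over the serpins described here, summed FPKM was higher in COPD lungs than in control lungs, and Serpinb1a carried the surplus. The summed FPKM of the serpins was 600.2 ± 53.5 in WDD libraries, 1884 ± 628 in COPD libraries and 652 ± 40.4 in control libraries (SD, n = 5 each). Without Serpinb1a the sums were 543 ± 53.04 in WDD, 464 ± 105 in COPD and 602 ± 41.7 in control libraries. Of the sum over all these serpins, Serpinb1a made up 9.54% in WDD libraries, 73.8% in COPD libraries and 7.60% in control libraries. As a share of the summed FPKM of all genes, these serpins took 0.0757% to 0.0947% in WDD libraries. The share was 0.120% to 0.357% in COPD libraries and 0.117% to 0.138% in control libraries. On that measure COPD 1 lay within the control range, and all WDD libraries lay below it.

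**Figure D1:**
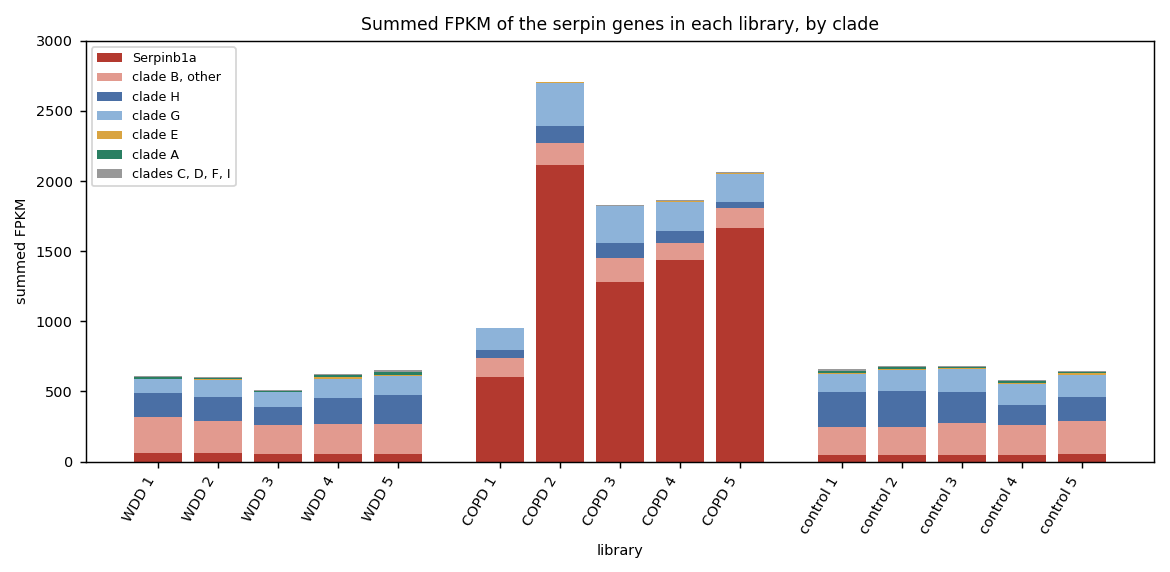
Summed FPKM of the serpin genes (vertical axis, linear, from 0) in each of the 15 libraries (horizontal axis, WDD, COPD and control), stacked by clade with Serpinb1a apart. The Serpinb1a block is 52 to 65 FPKM in WDD libraries, 604 to 2111 FPKM in COPD libraries and 46 to 56 FPKM in control libraries.

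In COPD against control, 3 of the 14 tested serpins were higher, 9 were lower and 2 did not pass the test (limma, adjusted p under 0.05). Over all genes tested, 8.23% were called higher and 66.4% lower in this comparison, so that many lower calls is also what genes at large showed. The higher genes were Serpinb1a, Serpinb10 and Serping1. The lower genes were Serpina1, Serpinb6a, Serpinb6b, Serpinb8, Serpinb9, Serpinc1, Serpine2, Serpinh1 and Serpini1. Serpinc1 passed the filter on low values through its control libraries alone, so in COPD against control and in WDD against control it had to differ, and its calls there support nothing. Serpini1 passed it through 4 WDD and 2 control libraries and no COPD library, so its calls in both comparisons with COPD support nothing either. The libraries of COPD and control did not overlap for 10 serpins: 2 were higher (Serpinb1a and Serpinb10), beside 3.99% of all genes, and 8 lower, beside 52.3%. The median log2 fold change of the tested serpins was -0.95, beside -0.81 over all genes. With median-of-ratios scaling, 4 serpins were higher and 5 lower, beside 30.2% and 32.3% of all genes.

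In WDD against COPD, 9 serpins were higher, 2 were lower and 3 did not pass, beside 57.1% of all genes higher and 6.63% lower. These comparisons share the COPD libraries. The higher genes were the 9 that were lower in COPD against control, and the lower genes were Serpinb1a and Serping1. The groups did not overlap for 8 of the higher serpins, beside 40.6% of all genes, and for both lower ones, beside 4.43%. With median-of-ratios scaling 5 were higher and 3 lower, beside 23.4% and 21.4% of all genes. In WDD against control, 0 serpins were higher, 3 were lower and 11 did not pass, beside 6.35% of all genes higher and 31.0% lower. None of the 8 positive changes in that comparison had an unadjusted p under 0.05 in limma either, whereas 3 serpins were called higher with median-of-ratios scaling, beside 15.9% of all genes, and 2 after quantile normalisation. With that scaling 1 serpin was called lower, Serpinc1, beside 16.9%. The groups did not overlap for 0 serpins that were higher in WDD and 2 that were lower (Serpinb9 and Serpinc1), beside 6.76% and 31.4% of all genes.

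By clade, set beside 8.23% of all genes higher and 66.4% lower, COPD against control gave 0 higher and 1 lower of 2 tested in clade A, 2 higher and 4 lower of 6 in clade B, and 1 higher and 3 lower of 5 in clades E to I. Beside 57.1% of all genes higher and 6.63% lower, WDD against COPD gave 1 higher and 0 lower in clade A, 4 higher and 1 lower in clade B, and 3 higher and 1 lower in clades E to I. Clade B and clades E to I thus each held calls in both directions. The counts for clades E to I include Serpini1 among the lower and then the higher genes. As said above, its calls in both comparisons with COPD support nothing. The median log2 fold changes for COPD against control were -1.13 in clade A, -0.95 in clade B and -0.51 in clades E to I. That last median is the value of Serpini1 itself. The difference between clades was not tested, since 2 to 6 genes stand behind each median.

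**Figure D2:**
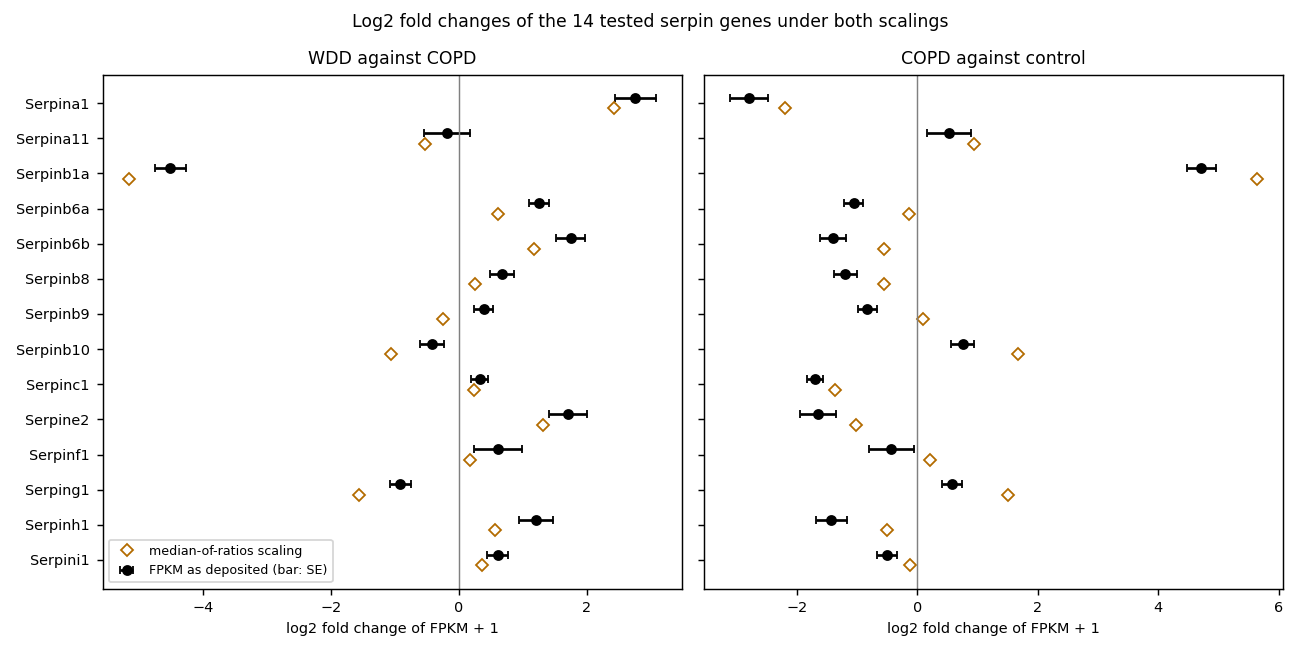
Log2 fold change of FPKM + 1 (horizontal axis) for each tested serpin (vertical axis), WDD against COPD on the left and COPD against control on the right, with SE bars for the deposited FPKM and open diamonds for median-of-ratios scaling. In COPD against control, Serpinb1a stands farthest to the right at 4.71 and Serpina1 farthest to the left at -2.79, and the diamonds lie to the right of the filled points for all 14 genes.

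Among the clade B serpins, Serpinb1a changed most. It encodes the leukocyte elastase inhibitor, which blocks neutrophil elastase, proteinase 3 and cathepsin G and is abundant in neutrophils and macrophages. Its FPKM was 64.5, 62.1, 52.3, 54.1 and 51.7 in the WDD libraries, 604, 2111, 1281, 1436 and 1666 in the COPD libraries and 45.6, 47.6, 48.1, 49.7 and 55.7 in the control libraries. Every COPD library lay far above every WDD and control library, and the WDD and control libraries overlapped.

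In COPD against control the log2 fold change of Serpinb1a was 4.71 ± 0.24 (SE), a 28.8-fold ratio of mean FPKM (limma, adjusted p = 8.16e-10). For WDD against COPD it was -4.51 ± 0.24 (adjusted p = 1.92e-09). For WDD against control it was 0.20 ± 0.24 (adjusted p = 0.547). Reads could be shared with the near copy Serpinb1b, which was at 0 in every library.

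Between groups, neutrophil genes moved with Serpinb1a. The summed FPKM of 12 neutrophil genes, among them S100a8, S100a9, Mmp8, Csf3r and Cxcr2, ranged from 119 to 704 in WDD libraries, from 14915 to 49859 in COPD libraries and from 170 to 258 in control libraries. Ltf, a granule gene on this list, was at or near 0 throughout, with 0.0851 FPKM at most. Of the 11 genes that were tested, 10 were higher in COPD against control and 10 were lower in WDD against COPD. Mmp9, counted in both, had 26.1 to 61.0 FPKM in COPD libraries and at most 1.30 elsewhere. It met the filter only because its COPD libraries were high, so its calls support nothing. Over all genes, 8.23% were higher in COPD against control and 6.63% lower in WDD against COPD. Without COPD 5, Ngp, the remaining gene, was called lower in COPD against control. Within groups the order differed in part. WDD 4 and WDD 5 had the highest neutrophil sums of their group, 635 and 704. Serpinb1a was 54.1 and 51.7 FPKM there, beside 64.5 in WDD 1, where the sum was 290. COPD 5 had a sum of 15435 and Serpinb1a at 1666 FPKM. COPD 1 had the lowest and COPD 2 the highest of both in their group. The part of neutrophils in the Serpinb1a values was not tested. Macrophage and monocyte genes were mixed: of 7 tested, 2 were higher and 2 lower in COPD against control, beside 8.23% and 66.4% of all genes.

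**Figure D3:**
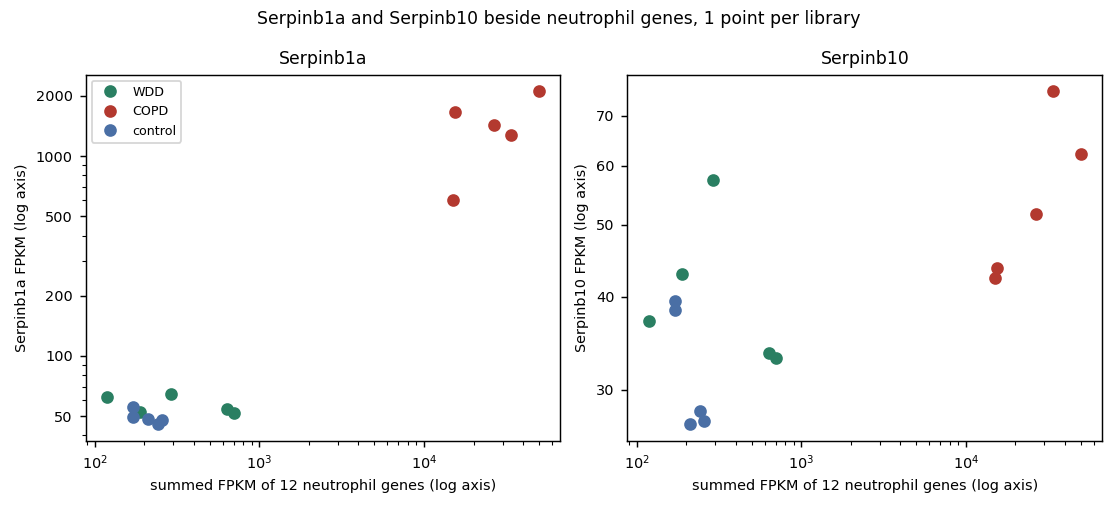
Summed FPKM of 12 neutrophil genes (horizontal, log axis) against FPKM of Serpinb1a (left) and Serpinb10 (right; both vertical axes are log), 1 point per library and 1 colour per group. The 5 COPD libraries stand apart on the right in both panels, above all others for Serpinb1a, while for Serpinb10 WDD 1 and WDD 3 reach the heights of COPD libraries.

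The proteases that Serpinb1a blocks were scarce as RNA. Elane, neutrophil elastase, had 0, 0, 0.385, 0.768 and 0.329 FPKM in the WDD libraries, 2.17, 4.78, 4.21, 2.32 and 2.78 in the COPD libraries and 0.0810, 0.407, 0, 0 and 0.338 in the control libraries. The COPD libraries were above all others. Elane passed the filter through its COPD libraries alone and so had to differ, and no test is given. Prtn3 (proteinase 3) and Ctsg (cathepsin G) stayed below 1 FPKM in every library and were not tested.

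Serpinb10, or bomapin, is a serpin of blood cells. It ranged from 33.1 to 57.3 FPKM in WDD libraries, from 42.4 to 75.5 in COPD libraries and from 27.0 to 39.5 in control libraries, so that COPD and control did not overlap and WDD overlapped both. COPD against control gave a log2 fold change of 0.75 ± 0.19 (limma, adjusted p = 0.00205). WDD against COPD gave -0.42 ± 0.19 (adjusted p = 0.0646), and with median-of-ratios scaling -1.06 (adjusted p = 7.13e-05). With libraries scaled to the FPKM sum of all genes, the COPD against control change of Serpinb10 was 0.20 (adjusted p = 0.36).

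Serpinb6a was lower in COPD lungs. Its human counterpart inhibits cathepsin G. It had 117, 108, 96.8, 106 and 114 FPKM in the WDD libraries, 32.2, 53.5, 59.2, 35.3 and 50.8 in the COPD libraries and 94.7, 94.0, 102, 90.8 and 92.7 in the control libraries. All COPD libraries lay below all others. Serpinb6a changed by -1.06 ± 0.15 on the log2 scale for COPD against control (limma, adjusted p = 1.13e-05), close to the median of all genes. With median-of-ratios scaling that change was -0.14 and was not called (adjusted p = 0.383). Between WDD and COPD the change was 1.25 ± 0.15 (adjusted p = 6.67e-06), and 0.61 with median-of-ratios scaling (adjusted p = 0.00176).

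Serpinb6b, which in mouse inhibits granzyme A, had 24.8, 22.9, 21.9, 22.7 and 22.2 FPKM in the WDD libraries, 7.35, 9.82, 6.30, 6.97 and 2.50 in the COPD libraries and 17.5, 14.8, 17.4, 18.0 and 22.1 in the control libraries. The COPD libraries were the lowest 5, and the WDD libraries overlapped the control libraries at control 5 alone. It was lower in COPD against control, with a log2 fold change of -1.40 ± 0.22 (limma, adjusted p = 2.79e-05) and remained called with median-of-ratios scaling, at -0.56 (adjusted p = 0.0274). Set against COPD, WDD lungs differed by 1.74 ± 0.22 (adjusted p = 8.96e-06). Its direct neighbour Serpinb1a differed in the opposite direction in both comparisons. Because Serpinb6a and Serpinb6b are close relatives, reads may have been split between them.

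Granzyme A itself, Gzma, was higher in COPD lungs. It averaged 28.7 ± 13.02 FPKM in WDD, 46.3 ± 15.2 in COPD and 16.7 ± 5.01 in control libraries (SD, n = 5 each), a log2 fold change of 1.40 ± 0.31 for COPD against control (limma, adjusted p = 0.000611). Of 5 tested genes of the granzyme list, 1 was higher and 3 were lower in COPD against control, beside 8.23% and 66.4% of all genes. With median-of-ratios scaling these were 1 and 0, beside 30.2% and 32.3%. Genes of T and NK cells, the usual source of granzymes, mostly went the opposite way to Gzma. Of 8 tested, 0 were higher and 7 lower in COPD lungs, beside 66.4% of all genes lower. These were 0 and 5 with median-of-ratios scaling, beside 30.2% and 32.3%.

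Serpinb9 blocks granzyme B and protects leukocytes from their own granules. Its FPKM ranged from 40.4 to 54.2 in WDD libraries, from 28.4 to 47.0 in COPD libraries and from 56.8 to 71.9 in control libraries, with control apart from both others. It was lower in COPD against control, with a log2 fold change of -0.83 ± 0.15 (limma, adjusted p = 0.000121), but with median-of-ratios scaling the sign turned, to 0.09 (adjusted p = 0.725). Between WDD and COPD the change was 0.38 ± 0.15 (adjusted p = 0.0384), which turned to -0.26 with median-of-ratios scaling (adjusted p = 0.314). It was 0.027 when scaled to the FPKM sum without mitochondrial genes (adjusted p = 0.927). This call was also lost when any of WDD 1, 2, 4 or 5 or COPD 2, 3 or 4 was left out. For WDD against control the change of Serpinb9 was -0.45 ± 0.15 (adjusted p = 0.0289), and -0.17 with median-of-ratios scaling (adjusted p = 0.552). That call was lost when any of WDD 3, 4 or 5 or control 3 or 5 was left out. Gzmb, granzyme B, was below 1 FPKM in every library.

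Serpinb8, which in human inhibits furin in vitro, had 3.39, 3.41, 2.97, 2.28 and 2.43 FPKM in the WDD libraries, 1.40, 1.83, 1.88, 1.36 and 0.837 in the COPD libraries and 3.76, 2.78, 5.61, 4.98 and 6.53 in the control libraries. The COPD libraries were below all others, and WDD and control overlapped at control 2. Serpinb8 had a log2 fold change of -1.20 ± 0.19 for COPD against control (limma, adjusted p = 2.62e-05) and 0.67 ± 0.19 for WDD against COPD (adjusted p = 0.00568). The call for WDD against COPD was lost with median-of-ratios scaling (0.26, adjusted p = 0.246), after quantile normalisation (0.036, adjusted p = 0.874) and when scaled to the FPKM sum without mitochondrial genes (0.43, adjusted p = 0.1002). After quantile normalisation the COPD against control change of Serpinb8 was -0.14 (adjusted p = 0.465). For WDD against control it was -0.53 ± 0.19 (adjusted p = 0.0371), and this call was lost when any of 6 single libraries, WDD 3, WDD 4, WDD 5, control 3, control 4 or control 5, was left out.

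The other 4 clade B serpins were not tested. Serpinb2, an inhibitor of urokinase, reached 0.222 FPKM at most and was at 0 in all 5 control libraries. Serpinb3 reached 0.569, Serpinb11 0.342 and Serpinb7 1.60 FPKM.

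**Figure D4:**
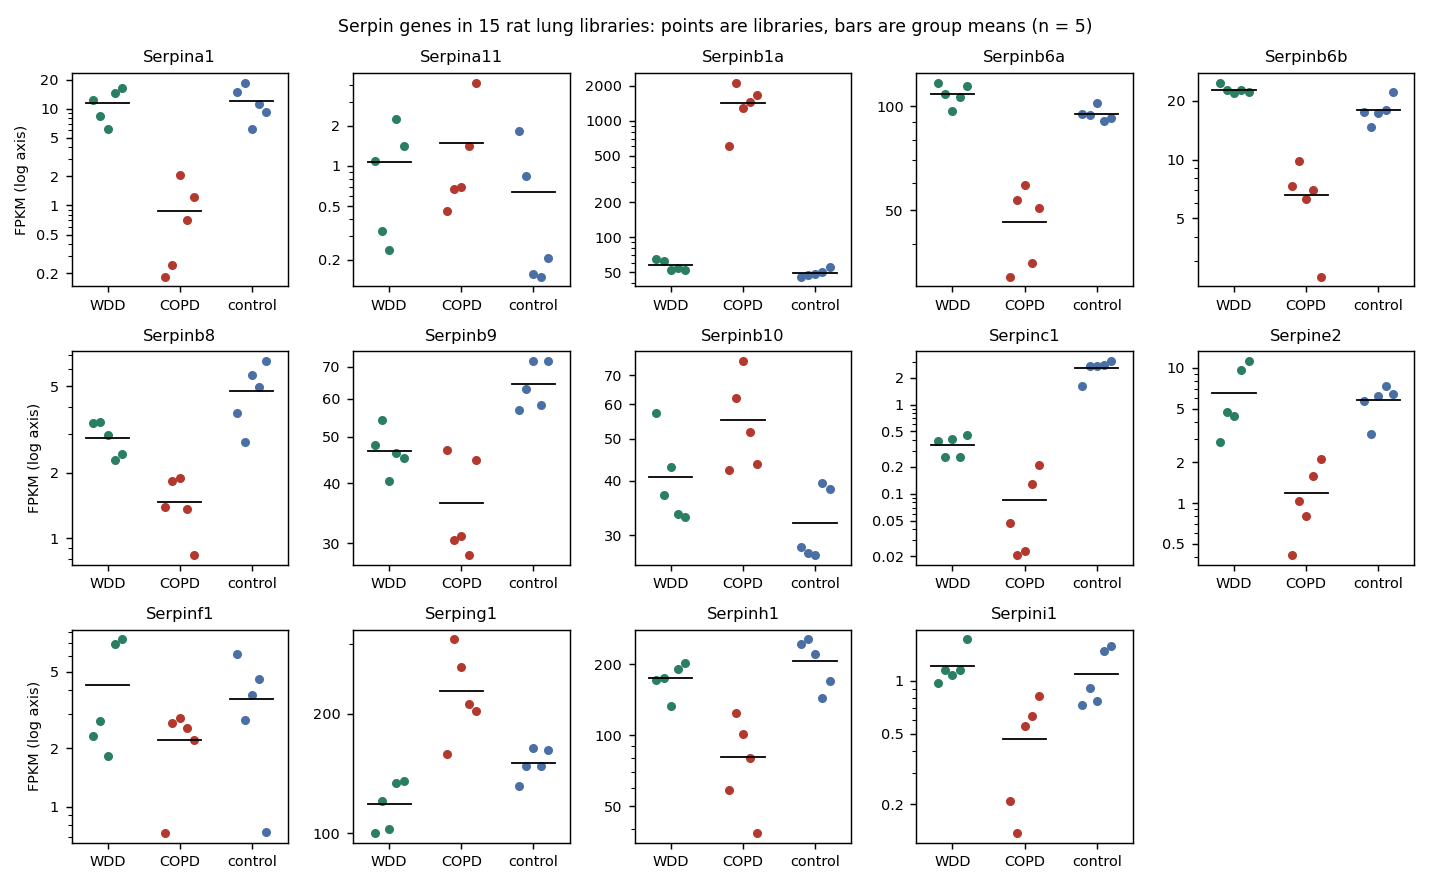
FPKM (vertical log axes, 1 scale per panel) of the 14 tested serpins in the WDD, COPD and control libraries, where points are libraries and bars are group means (n = 5). COPD libraries lie above all others for Serpinb1a, and below all others for Serpina1, Serpinb6a, Serpinb6b, Serpinb8, Serpinc1, Serpine2 and Serpinh1.

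In clade A, Serpina1 was strongly lower in COPD lungs. It encodes alpha-1 antitrypsin, the main extracellular inhibitor of neutrophil elastase, which is made chiefly by the liver and also by lung epithelium and macrophages. Its FPKM was 12.4, 8.34, 6.13, 14.4 and 16.4 in the WDD libraries, 0.183, 0.242, 2.04, 0.712 and 1.24 in the COPD libraries and 14.9, 18.5, 6.17, 11.1 and 9.15 in the control libraries. All COPD libraries lay below all others, and WDD and control libraries overlapped over most of their range.

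Serpina1 had a log2 fold change of -2.79 ± 0.32 for COPD against control (limma, adjusted p = 8.13e-07), where mean FPKM was 13.5-fold lower in COPD. It was 2.75 ± 0.32 for WDD against COPD (adjusted p = 3.55e-06) and -0.04 ± 0.32 for WDD against control (adjusted p = 0.938). The change for COPD against control stayed at -2.20 with median-of-ratios scaling (adjusted p = 4.35e-05). The elastase inhibitors Serpina1 and Serpinb1a thus differed in opposite directions in both comparisons with COPD.

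Alveolar type 2 cell genes moved the same way as Serpina1 in sign. Of 8 tested, 0 were higher and 6 lower in COPD against control, beside 66.4% of all genes lower, and their summed FPKM ranged from 19643 to 23023 in WDD, from 3090 to 14383 in COPD and from 16531 to 25266 in control libraries. Alveolar type 1 genes were lower for 8 of 8, beside the same 66.4% of all genes. With median-of-ratios scaling these were 2 higher and 5 lower of the type 2 genes and 7 lower of the type 1 genes. Over all genes that scaling gave 30.2% higher and 32.3% lower. The summed FPKM of the hepatocyte genes ranged from 24.1 to 30.5 in WDD, from 106 to 363 in COPD and from 29.8 to 36.02 in control libraries, nearly all of it from Tf, transferrin. The 2 tested hepatocyte genes, Tf and Apoa2, were both called higher in COPD lungs, beside 8.23% of all genes. Apoa2 ranged from 1.07 to 4.59 FPKM in COPD and from 0 to 1.07 in control libraries, with at most 0.675 in WDD libraries. It met the filter only because its COPD libraries were high, so its call supports nothing. Alb, albumin, did not pass 0.180 FPKM in any library. The part of these cells in the Serpina1 values was not tested.

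Serpina11, next to Serpina1 on the chromosome, showed no call under the deposited scaling. It ranged from 0.235 to 2.25 FPKM in WDD, from 0.458 to 4.16 in COPD and from 0.149 to 1.83 in control libraries, and all 3 groups overlapped. Serpina11 changed by 0.52 ± 0.36 on the log2 scale for COPD against control (limma, adjusted p = 0.195), and by 0.22 without COPD 5 (adjusted p = 0.533). With median-of-ratios scaling it was 0.93 (adjusted p = 0.0466).

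Clades C and D hold the clotting inhibitors, and both genes were lowest in COPD lungs. Serpinc1, antithrombin, a heparin-dependent inhibitor of thrombin and factor Xa, had 0.392, 0.258, 0.410, 0.258 and 0.461 FPKM in the WDD libraries, 0.0468, 0.0206, 0.0227, 0.130 and 0.210 in the COPD libraries and 1.61, 2.74, 2.72, 2.76 and 3.08 in the control libraries. None of the 3 groups overlapped another. Means were 0.356 ± 0.0926 in WDD, 0.0860 ± 0.0824 in COPD and 2.58 ± 0.563 in control libraries (SD, n = 5 each).

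Since Serpinc1 entered the fit only through its high control libraries, no p is given against control. Mean FPKM was 30.03-fold lower in COPD and 7.26-fold lower in WDD than in control, where the log2 fold changes of FPKM + 1 were -1.71 ± 0.13 and -1.39 ± 0.13, because the added pseudocount shrinks changes at such low levels. Between WDD and COPD the log2 fold change of Serpinc1 was 0.32 ± 0.13 (limma, adjusted p = 0.0446). That call was lost with median-of-ratios scaling (adjusted p = 0.155), changed sign after quantile normalisation (-0.22, adjusted p = 0.189), and was lost without any of 10 single libraries: WDD 1, 2, 3 and 5, COPD 1, 2, 3 and 4, and control 3 and 4. Serpind1, heparin cofactor II, was not tested. It ranged from 0.484 to 0.929 FPKM in WDD libraries, from 0 to 0.283 in COPD libraries and from 0.998 to 2.20 in control libraries, again with no overlap between groups.

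Other clotting genes were counted for comparison. Of 14 tested genes of coagulation and its regulators, 3 were higher and 9 lower in COPD against control, with a median log2 fold change of -1.12, beside 66.4% of all genes lower and a median of -0.81. In WDD against COPD 9 were higher, beside 57.1% of all genes, and 3 lower, beside 6.63%. With median-of-ratios scaling 4 were higher and 7 lower in COPD against control, beside 30.2% and 32.3% of all genes. Thbd, thrombomodulin, which turns thrombin into an anticoagulant, was among the lower ones at -1.53 ± 0.33 (limma, adjusted p = 0.000473), and at -0.60 with median-of-ratios scaling, no longer called (adjusted p = 0.076). Procr, the endothelial protein C receptor, was among the higher ones at 2.08 ± 0.41 (adjusted p = 0.000218). Tfpi2, a Kunitz inhibitor, was higher by 3.29 ± 0.72 (adjusted p = 0.000589), with 282 FPKM in COPD 5 and 4.45 to 12.2 in the other COPD libraries, and by 2.31 without COPD 5 (adjusted p = 1.88e-07). F3, tissue factor, did not pass the test at -0.15 ± 0.31 (adjusted p = 0.686).

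In clade E, Serpine2 was lower in COPD lungs. It encodes protease nexin-1, which inhibits thrombin, urokinase and other trypsin-like proteases at cell surfaces. Its FPKM was 2.83, 4.70, 4.37, 9.59 and 11.2 in the WDD libraries, 0.414, 1.03, 0.803, 1.59 and 2.13 in the COPD libraries and 5.73, 3.27, 6.17, 7.35 and 6.40 in the control libraries. COPD libraries lay below all others, and WDD libraries spanned the control range and beyond. Serpine2 changed by -1.65 ± 0.30 on the log2 scale for COPD against control (limma, adjusted p = 0.000117) and 1.70 ± 0.30 for WDD against COPD (adjusted p = 0.000173). With median-of-ratios scaling these were -1.03 (adjusted p = 0.0115) and 1.31 (adjusted p = 0.00397), and after quantile normalisation the COPD against control change of Serpine2 was -0.62 (adjusted p = 0.102). Serpine3 was not tested and ranged from 0.261 to 1.89 FPKM over all libraries.

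The genes of plasminogen activation, which yields the clot-dissolving enzyme plasmin, split in direction. Of 8 tested, 3 were higher in COPD against control (Plaur, Anxa2 and S100a10) and 3 were lower (Plau, Vtn and Lrp1), beside 8.23% and 66.4% of all genes. Plau, urokinase, had 9.89, 8.39, 4.73, 5.11 and 3.94 FPKM in the WDD libraries, 0.861, 0.797, 0.918, 0.717 and 1.70 in the COPD libraries and 17.1, 21.0, 19.3, 17.2 and 18.0 in the control libraries. The 3 groups did not overlap, and the log2 fold change was -3.31 ± 0.20 for COPD against control (limma, adjusted p = 2.76e-09).

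Plaur, the urokinase receptor, averaged 14.4 ± 0.935 FPKM in WDD, 85.1 ± 16.1 in COPD and 20.1 ± 2.45 in control libraries (SD, n = 5 each), a log2 fold change of 2.01 ± 0.14 for COPD against control (limma, adjusted p = 5.76e-09). Plat, the tissue-type activator, averaged 107 ± 16.1 in WDD, 136 ± 55.9 in COPD and 80.5 ± 4.90 FPKM in control libraries and did not pass the test for COPD against control (log2 fold change 0.61 ± 0.27, adjusted p = 0.0534), though it was called with median-of-ratios scaling (1.54, adjusted p = 6.01e-05). Vtn, vitronectin, a protein of plasma and matrix, fell to 4.85 ± 3.41 FPKM in COPD libraries, against 41.4 ± 9.13 in control libraries (log2 fold change -3.08 ± 0.34, adjusted p = 6.27e-07). The plasminogen gene Plg did not pass 0.227 FPKM in any library.

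**Figure D5:**
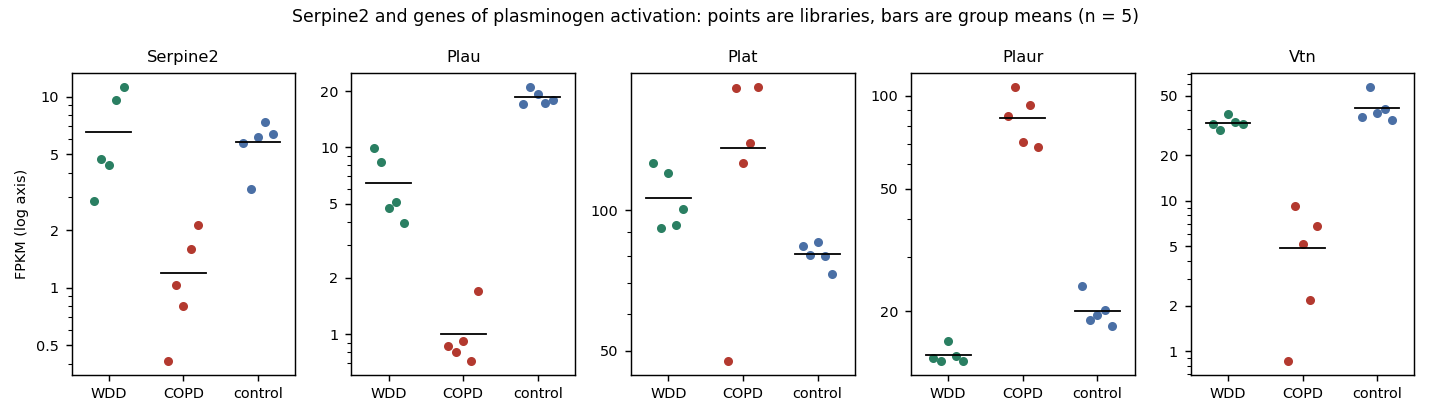
FPKM (vertical log axes, 1 scale per panel) of Serpine2, Plau, Plat, Plaur and Vtn in WDD, COPD and control libraries, where points are libraries and bars are group means (n = 5). Plaur is highest in COPD libraries, where Serpine2, Plau and Vtn are lowest.

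In clade F, Serpinf1, the secreted factor PEDF, which inhibits no known protease and restrains blood vessel growth, was not called in any comparison. It ranged from 1.83 to 7.34 FPKM in WDD, from 0.730 to 2.88 in COPD and from 0.740 to 6.17 in control libraries, and all groups overlapped. The log2 fold change was -0.43 ± 0.38 for COPD against control (limma, adjusted p = 0.312). Serpinf2, alpha-2-antiplasmin, the inhibitor of plasmin, was not tested and lay between 0.134 and 2.56 FPKM.

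Serping1, the C1 inhibitor, blocks C1r and C1s of complement and also plasma kallikrein. It was among the most abundant serpins, with 100, 121, 102, 134 and 135 FPKM in the WDD libraries, 158, 309, 262, 212 and 203 in the COPD libraries and 131, 148, 164, 148 and 162 in the control libraries. COPD 1 lay within the control range and the other COPD libraries above it. All WDD libraries lay below all COPD libraries.

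The log2 fold change of Serping1 was 0.57 ± 0.17 for COPD against control (limma, adjusted p = 0.00563) and -0.92 ± 0.17 for WDD against COPD (adjusted p = 0.000206). With median-of-ratios scaling these were 1.50 (adjusted p = 9.94e-08) and -1.57 (adjusted p = 1.07e-07). Scaled to the FPKM sum of all genes, the first was 0.00 (adjusted p = 0.987). For WDD against control Serping1 changed by -0.35 ± 0.17 and was not called (adjusted p = 0.109), nor with median-of-ratios scaling (-0.07, adjusted p = 0.708). It was called lower after quantile normalisation (-0.49, adjusted p = 0.0107) and when scaled to the FPKM sum without mitochondrial genes (-0.51, adjusted p = 0.00361).

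The proteases that Serping1 blocks differed in direction in the same lungs. C1r averaged 45.9 ± 9.53 FPKM in WDD, 81.1 ± 18.2 in COPD and 51.3 ± 4.94 in control libraries (SD, n = 5 each), a log2 fold change of 0.62 ± 0.18 for COPD against control (limma, adjusted p = 0.00427). C1s changed by 0.84 ± 0.25 (adjusted p = 0.00676). Masp2, a protease of the lectin pathway, was lower, at -1.76 ± 0.20 (adjusted p = 6.82e-07), as was F11, coagulation factor XI, at -1.25 ± 0.23 (adjusted p = 0.000102). Klkb1, plasma kallikrein, did not pass 0.0604 FPKM in any library. Of the 9 tested genes of this complement list, C1r and C1s were higher and 6 were lower, beside 8.23% and 66.4% of all genes. Among the lower ones were C1qa, C1qb and C1qc, which encode the recognition unit C1q. So many lower calls is also what genes at large showed. With median-of-ratios scaling 3 were higher and 4 lower, beside 30.2% and 32.3% of all genes. In WDD against COPD, C1r and C1s were lower, beside 6.63% of all genes, and 5 others were higher, beside 57.1%.

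Serpinh1 encodes HSP47, a collagen chaperone of the endoplasmic reticulum and no inhibitor. Its FPKM was 172, 175, 134, 190 and 202 in the WDD libraries, 58.8, 125, 102, 79.9 and 38.5 in the COPD libraries and 245, 256, 222, 144 and 171 in the control libraries. The COPD libraries were below all others, and WDD and control overlapped. The log2 fold change was -1.43 ± 0.26 for COPD against control (limma, adjusted p = 0.000112), and with median-of-ratios scaling -0.50, which was not called (adjusted p = 0.055). For WDD against COPD Serpinh1 changed by 1.20 ± 0.26 (adjusted p = 0.000884), and by 0.56 with median-of-ratios scaling (adjusted p = 0.048).

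Its collagen clients and their modifying enzymes were counted as well: of 17 tested, 0 were higher and 13 lower in COPD against control, beside 8.23% and 66.4% of all genes, with a median log2 fold change of -1.41, beside -0.81. The counts were 2 higher and 9 lower with median-of-ratios scaling, beside 30.2% and 32.3% of all genes. Col4a2, of basement membranes, changed by -2.78 ± 0.20 (limma, adjusted p = 9.57e-09). The fibrillar collagen Col3a1 did not pass, at -0.20 ± 0.29 (adjusted p = 0.531), and was called higher with median-of-ratios scaling (0.73, adjusted p = 0.0163). Smooth muscle and pericyte genes were lower for 9 of 9 tested in COPD lungs and fibroblast genes for 4 of 7, with 1 higher. With median-of-ratios scaling 6 smooth muscle and pericyte genes were lower, and 2 fibroblast genes were higher and 2 lower. Summed FPKM of the smooth muscle and pericyte genes ranged from 289 to 619 in WDD, from 178 to 259 in COPD and from 507 to 870 in control libraries. Their part in the Serpinh1 values was not tested.

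In clade I, Serpini1, neuroserpin, an inhibitor of tissue-type plasminogen activator best known from nerve cells, was low throughout. It ranged from 0.965 to 1.71 FPKM in WDD, from 0.137 to 0.815 in COPD and from 0.730 to 1.58 in control libraries. None of its COPD libraries reached 1 FPKM, and it passed the filter through 4 WDD and 2 control libraries. The filter thus favoured a lower value in COPD, and no p is given for either comparison with COPD. The log2 fold change was -0.51 ± 0.17 for COPD against control and -0.13 with median-of-ratios scaling. After quantile normalisation the sign turned, to 0.36. For WDD against COPD Serpini1 changed by 0.60 ± 0.17, by 0.35 with median-of-ratios scaling, and by -0.0044 after quantile normalisation. Serpini2 was not tested and reached 0.580 FPKM at most.

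Fewest serpins were called between WDD and control lungs, where fewest of all genes were called too (6.35% higher and 31.0% lower). Of the 14 tested, the 3 called were Serpinb8, Serpinb9 and Serpinc1, all lower, of which Serpinc1 had entered the fit through its control libraries alone. For the other 11 the log2 fold change lay between -0.35 (Serping1) and 0.34, and a p above the threshold does not show that these levels were alike. Serping1 was called lower after quantile normalisation and when scaled to the FPKM sum without mitochondrial genes. With median-of-ratios scaling neither Serpinb8 nor Serpinb9 was called, and Serpinb6a (0.47, adjusted p = 0.0132), Serpinb6b (0.61, adjusted p = 0.0353) and Serpinb10 (0.60, adjusted p = 0.00846) were higher. Over all genes, 15.9% were called higher on that scale.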

How the data were processed

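Total RNA of rat lung was extracted with TRIzol and 1 ug was made into libraries with the NEBNext Ultra RNA kit, per the labels' protocols. Per the submitters' processing notes, cutadapt, HISAT2, StringTie and the build Rnor_6.0 were used. For the annotation release and strand use, nothing was given in the sources used here. The authors deposited FPKM, which they had computed. No read counts were used, so the depth is known only relative to control 2, and no counting intervals are given. Depth and mitochondrial share are given with the results.

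Values were tested as log2(FPKM + 1), for genes that reached 1 FPKM in 5 or more of the 15 libraries. This scale understates changes of low genes. A single fit by group over all libraries was made in R 4.3.3 with limma 3.58.1, using eBayes and its trend option. Tests were two-sided, with Benjamini-Hochberg adjustment over all 13172 genes tested and calls at an adjusted p under 0.05. The fit was tested on simulated data. Whole-library shares were compared by exact permutation tests. Tables and figures used Python 3.11.15 with pandas 2.3.3, scipy 1.17.1 and matplotlib 3.10.9.

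The serpins, the lists of other genes and the tests were chosen with earlier results of these data known, so the lists are described by counts and medians. All 14 tested serpins are named. Values for every library are given for those with a call and an absolute log2 fold change of at least 1, and for Serpina1, Serpinh1 and Serping1. In addition, 1 serpin gene is not reported here and is left out of every serpin count, sum and median, but not of the fit over all genes. Reads of near copies (Serpinb6a and Serpinb6b, Serpinb9 and Serpinb9d, Serpinb1a and Serpinb1b, Serpinb3 and Serpinb3a) may be split between them. Promoter windows are RefSeq's, on GRCr8, and gene order is from the same assembly. Protein sequences were not used here. The alternatives were other pseudocounts, filters, scalings, fits, library weights, the replicate number as a block and the leaving out of libraries.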

Additional observations from a re-analysis of the deposited data

Results flagged for a closer look

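Within each group of 5, the highest and the lowest library were set against the range of the group for each tested serpin, 42 groups in all, and 3 stood apart where chance gives about 1 in 20. Serpina11 in COPD 5 was 4.164 FPKM, with the others between 0.458 and 1.41. Serpini1 in WDD 5 was 1.711 FPKM, with the others between 0.965 and 1.15. Serpinc1 in control 1 was 1.611 FPKM, with the others between 2.72 and 3.08.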

How the results depend on the processing

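Counts are of the 14 tested serpins. COPD against control gave 3 higher and 9 lower, WDD against COPD 9 higher and 2 lower, and WDD against control 0 higher and 3 lower. Higher calls in COPD against control fell to 1 when scaled to the FPKM sum, and lower calls to 5 with median-of-ratios scaling and to 5 with a mean FPKM of at least 5, where 8 serpins were tested. Higher calls in WDD against COPD were 5 with median-of-ratios scaling, with quantile normalisation and with that filter. Higher calls in WDD against control were 3 with median-of-ratios scaling, 2 with quantile normalisation, only the 2 groups compared or library weights, and 1 without COPD 1 and COPD 5. Lower calls there were 1 with a mean FPKM of at least 5, with median-of-ratios scaling or with WDD 4 and WDD 5 averaged, and 5 when scaled to the FPKM sum. Leaving out 1 library at a time gave 3 and 9 throughout for COPD against control. It gave 7 to 9 higher and 2 to 3 lower for WDD against COPD, and 0 to 1 higher (1 without COPD 5) and 1 to 3 lower for WDD against control (1 without WDD 3, WDD 4, WDD 5, control 3 or control 5). The sign turned for Serpinb9 with median-of-ratios scaling in COPD against control (0.086) and WDD against COPD (-0.26), and after quantile normalisation for Serpini1 in COPD against control (0.36) and WDD against COPD (-0.0044) and for Serpinc1 in WDD against COPD (-0.22). The cause was not tested. The labels do not say that replicate numbers pair libraries. Deviations from the group means correlated above 0.1 in 1 of 15 same-numbered pairs (range -0.201 to 0.143). Such correlations cannot show whether same-numbered libraries shared a batch. With the number as a replicate block the counts were 3 and 9, 7 and 2, and 0 and 2. WDD 4 and WDD 5 were the most alike pair within a group and were kept apart. Serpins below 1 FPKM are limited by depth.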

Other observations

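Other protease inhibitors of the lung moved in both directions beside the serpins. Of 16 tested, 4 were higher and 9 lower in COPD against control, beside 8.23% and 66.4% of all genes, with a median log2 fold change of -0.91. In WDD against COPD 11 were higher and 3 lower, beside 57.1% and 6.63% of all genes. With median-of-ratios scaling 6 were higher and 6 lower in COPD against control, beside 30.2% and 32.3% of all genes. Slpi, the secretory leukocyte protease inhibitor, which also blocks neutrophil elastase, averaged 127 ± 23.7 FPKM in WDD, 549 ± 229 in COPD and 80.9 ± 48.5 in control libraries (SD, n = 5 each). Its log2 fold change was 2.81 ± 0.34 for COPD against control (limma, adjusted p = 1.52e-06) and -2.01 ± 0.34 for WDD against COPD (adjusted p = 0.000113). Timp1, a metalloproteinase inhibitor, was higher in COPD lungs by 3.29 ± 0.34 (adjusted p = 2.65e-07), whereas Timp3, another of that family, was lower, at -4.83 ± 0.34 (adjusted p = 7.3e-09). Cst3, cystatin C, averaged 2178 ± 159 FPKM in WDD, 485 ± 235 in COPD and 1340 ± 262 in control libraries.

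Genes of the interleukin-6, interleukin-1, TGF-beta and glucocorticoid pathways and related genes were counted as well. Such pathways induce serpins in other settings, but not every gene on this list is an inducer. Of 17 tested, 6 were higher and 7 lower in COPD against control, beside 8.23% and 66.4% of all genes. In WDD against COPD 5 were higher and 9 lower, beside 57.1% and 6.63% of all genes. With median-of-ratios scaling 9 were higher and 4 lower in COPD against control, beside 30.2% and 32.3% of all genes. Il6, counted among the higher genes, ranged from 0.0710 to 0.532 FPKM in WDD, from 12.1 to 98.001 in COPD and from 0 to 0.525 in control libraries, and passed the filter through its COPD libraries alone, so no test is given. Cebpb changed by 2.63 ± 0.37 on the log2 scale for COPD against control (limma, adjusted p = 7.74e-06) and Socs3 by 0.97 ± 0.33 (adjusted p = 0.0133). Il6st, the shared receptor chain of the interleukin-6 family, changed by -2.51 ± 0.35 (adjusted p = 6.98e-06), and Stat3 by 0.00 ± 0.29 (adjusted p = 0.999; with median-of-ratios scaling 0.92, adjusted p = 0.0226; without COPD 5 -0.39, adjusted p = 0.00352). Cysteine cathepsins, which some clade B serpins inhibit, gave 0 higher and 4 lower of 10 tested in COPD against control, but 6 higher and 2 lower with median-of-ratios scaling. Trypsin-like membrane and epithelial proteases gave 0 higher and 8 lower of 9, and 1 higher and 6 lower with that scaling. Beside both lists, 8.23% of all genes were higher and 66.4% lower, and 30.2% and 32.3% with median-of-ratios scaling.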
